A study of Mus musculus with 30 samples.

Results

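The genes described here are 10 genes of the mouse MHC class I pathway, of 51752 genes in the count table: the heavy chain genes H2-K1, H2-D1, H2-Q4, H2-Q6, H2-Q7, H2-T23 and H2-M3, the light chain gene B2m, the peptide transporter subunit gene Tap1 and the immunoproteasome subunit gene Psmb8. They were chosen by gene symbol, with earlier results of these libraries known, among them higher interferon-response genes with the antibody against interleukin-34 (IL-34). Which measured values led to each symbol is not recorded in the sources used here. The fold changes and p-values of the members are therefore descriptions of these libraries, and none is offered as independent evidence.

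IL-34 is a secreted ligand of the receptor CSF1R, on which the development and survival of microglia depend. RNA was sequenced from 15 mice, each giving 1 library of whole forebrain and 1 of cells isolated with an antibody against CD11b, a surface protein of microglia and other myeloid cells. In the genotype experiment, 4 animals were IL34 Het and 3 were IL34 KO, so the controls carried 1 altered Il34 copy. In the antibody experiment, wild-type mice received a blocking antibody against IL-34 (anti-IL34, 4 animals) or a control antibody against gp120 (anti-gp120, 4 animals). Het and anti-gp120 animals were 2 males and 2 females each, the KO group held 1 male and 2 females, and the anti-IL34 group held 3 males and 1 female. The age and strain of the animals, the kind of Il34 allele and the doses of antibody are not given in the sources used here.

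A class I molecule is a heavy chain paired with beta-2-microglobulin, the product of B2m, and it carries a short peptide to the cell surface. Proteasomes cut the peptides, the TAP transporter moves them into the endoplasmic reticulum, and T and NK cells read the finished complex. H2-K1 and H2-D1 encode the classical heavy chains, and the H2-Q, H2-T and H2-M genes encode less variable, nonclassical ones. Interferons are known to raise transcription of most of the pathway, through factors that include STAT2, IRF9, IRF1 and NLRC5. Microglia express class I genes, and so do endothelial and other brain cells.

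On GRCm38, with GENCODE M21 gene models, 9 of the members lie on chromosome 17, in and around the major histocompatibility complex. H2-K1 lies at chr17:33996017-34000347 on the minus strand, Tap1 at chr17:34187553-34197225 and Psmb8 at chr17:34197721-34201454 on the plus strand. H2-D1 (chr17:35262730-35267499), H2-Q4 (chr17:35379617-35385290), H2-Q6 (chr17:35424850-35430055) and H2-Q7 (chr17:35439155-35443773) follow on the plus strand. H2-T23 lies at chr17:36029773-36032855 on the minus strand and H2-M3 at chr17:37270220-37274484 on the plus strand. B2m is the exception, at chr2:122147686-122153083 on the plus strand.

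The promoters of 3 members are shown because H2-Q6 and H2-Q7 had the largest values with the antibody in microglia, and B2m was the only member called after deletion in forebrain. Each line is the 250 bases before the start that RefSeq gives on GRCm38.p6, 5′ to 3′ on the plus strand, at chr17:35424600-35424849, chr17:35438905-35439154 and chr2:122147437-122147686. Capitals mark the letters AANNGAAA on either strand, the core shared by binding motifs of interferon regulatory factors.
H2-Q6: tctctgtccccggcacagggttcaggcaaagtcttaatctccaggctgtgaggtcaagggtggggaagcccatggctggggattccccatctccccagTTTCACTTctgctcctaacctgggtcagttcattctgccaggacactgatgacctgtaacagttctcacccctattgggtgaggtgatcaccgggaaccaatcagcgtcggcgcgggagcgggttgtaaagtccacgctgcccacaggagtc
H2-Q7: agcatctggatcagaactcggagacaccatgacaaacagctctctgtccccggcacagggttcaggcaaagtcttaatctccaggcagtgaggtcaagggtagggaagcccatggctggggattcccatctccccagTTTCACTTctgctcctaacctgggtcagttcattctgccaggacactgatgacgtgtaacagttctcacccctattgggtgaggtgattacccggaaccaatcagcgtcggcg
B2m: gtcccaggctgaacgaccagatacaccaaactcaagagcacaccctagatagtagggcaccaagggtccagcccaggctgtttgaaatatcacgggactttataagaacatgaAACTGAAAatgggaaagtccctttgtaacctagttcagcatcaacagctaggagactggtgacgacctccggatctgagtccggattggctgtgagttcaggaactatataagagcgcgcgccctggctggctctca
The H2-Q6 and H2-Q7 windows aligned with 205 identical and 5 different bases and 80 gap bases, because their annotated starts are offset. The capitals begin 152 bases before the start in H2-Q6, 113 in H2-Q7 and 137 in B2m.

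All 10 members had such a window, and 8 of them held AANNGAAA, against 21.3% of 32851 windows of the same length. Tap1 and Psmb8 had no match. The longer form AANNGAAAC, which includes those letters, was in 6 members (H2-K1, H2-D1, H2-Q4, H2-Q6, H2-Q7 and H2-M3) and in 4.95% of all windows. GGGATTCCC, a form of the enhancer A motif bound by NF-kB factors, was in H2-K1, H2-D1, H2-Q6 and H2-Q7 and in 0.301% of all windows. CCAAT, bound by NF-Y, was in 9 members and 33.8% of windows, and TGACG, part of a CREB site, in 7 members and 17.8%. The motifs were searched on both strands, and a match is a description of letters, not of binding.

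Library totals ran from 15064391 to 75158213 counts in forebrain and from 15755836 to 50541164 in the isolates. Il34 itself stood at 19.2 to 23.5 CPM (counts scaled to a common library size with edgeR's TMM factors within a tissue) in the Het forebrains and 6.77 to 8.75 in the KO forebrains, without overlap, and at 31.8 to 38.8 and 36.6 to 41.4 in the anti-gp120 and anti-IL34 forebrains. The 6 microglia markers (P2ry12, Tmem119, Cx3cr1, Csf1r, Sall1 and Siglech) summed to 6965 to 12164 CPM in the Het isolates and to 152 to 166 in the Het forebrains, so the isolates carried the labelled cell type. The isolates also held RNA of other cells: the 5 astrocyte markers summed to 1109 to 3246 CPM in the Het isolates. In these bulk libraries, fewer cells of a type and less RNA per cell cannot be told apart.

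All 10 members were higher in isolated microglia than in whole forebrain of the 8 control animals. Among the 8 members that also passed the filter on low counts within forebrain, the difference was largest for H2-Q4, with a log2 fold change of 6.17 ± 0.25 (SE), and smallest for H2-M3, at 2.86 ± 0.17. The classical chain genes stood between them, H2-K1 at 5.14 ± 0.22 and H2-D1 at 4.43 ± 0.19, near B2m at 4.25 ± 0.14, Tap1 at 4.20 ± 0.20 and Psmb8 at 4.49 ± 0.23. H2-T23 stood at 3.67 ± 0.17. H2-Q6 (8.11 ± 0.40) and H2-Q7 (7.04 ± 0.37) had at most 21 and 6 counts in any control forebrain and passed the filter here only through the isolates, so these values describe genes that had to differ. All 10 passed an adjusted p of 0.05 in edgeR's quasi-likelihood test with Benjamini-Hochberg adjustment, as did 83.5% of the 19952 genes tested, so the count says nothing particular about the members. The ordering is of differences between tissues, not of levels.

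Per kilobase of exon, the order of levels was led in both tissues by B2m, which pairs with every heavy chain listed here. In the 8 control isolates B2m stood at 799 ± 205 CPM per kb (SD), H2-D1 at 105 ± 34.0, H2-K1 at 80.6 ± 26.6, H2-Q4 at 36.8 ± 12.9, H2-Q6 at 18.3 ± 9.28 and H2-T23 at 12.3 ± 4.01. H2-M3 (6.56 ± 1.74), Psmb8 (5.89 ± 1.89), Tap1 (5.20 ± 2.14) and H2-Q7 (2.13 ± 1.02) followed. Neighbours from B2m down to H2-Q6 kept their order in 8 of 8 libraries, while H2-Q6 exceeded H2-T23 in 6 of 8, and H2-M3 exceeded Psmb8, and Psmb8 exceeded Tap1, in 7 of 8. In forebrain the order was B2m (44.4 ± 7.67 CPM per kb), H2-D1 (5.12 ± 0.92), H2-K1 (2.40 ± 0.57), H2-T23 (1.02 ± 0.30), H2-M3 (0.962 ± 0.187), H2-Q4 (0.530 ± 0.158), Tap1 (0.298 ± 0.104), Psmb8 (0.288 ± 0.134), H2-Q6 (0.0643 ± 0.0427) and H2-Q7 (0.0126 ± 0.0086). There, H2-T23 exceeded H2-M3 in 3 of 8 libraries, all of them anti-gp120. In the Het forebrains H2-M3 was always the higher, at 0.972 to 1.26 against 0.788 to 0.899 CPM per kb. The order of this pair thus differed between the experiments, which the pooled means hide. Tap1 exceeded Psmb8 in 4 of 8 libraries, so that pair had no steady order. B2m, H2-D1 and H2-K1 led and H2-Q7 came last in both tissues, while H2-Q4 and H2-Q6 stood ahead of H2-T23 on average in microglia and behind H2-M3 in forebrain.

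**Figure D1:**
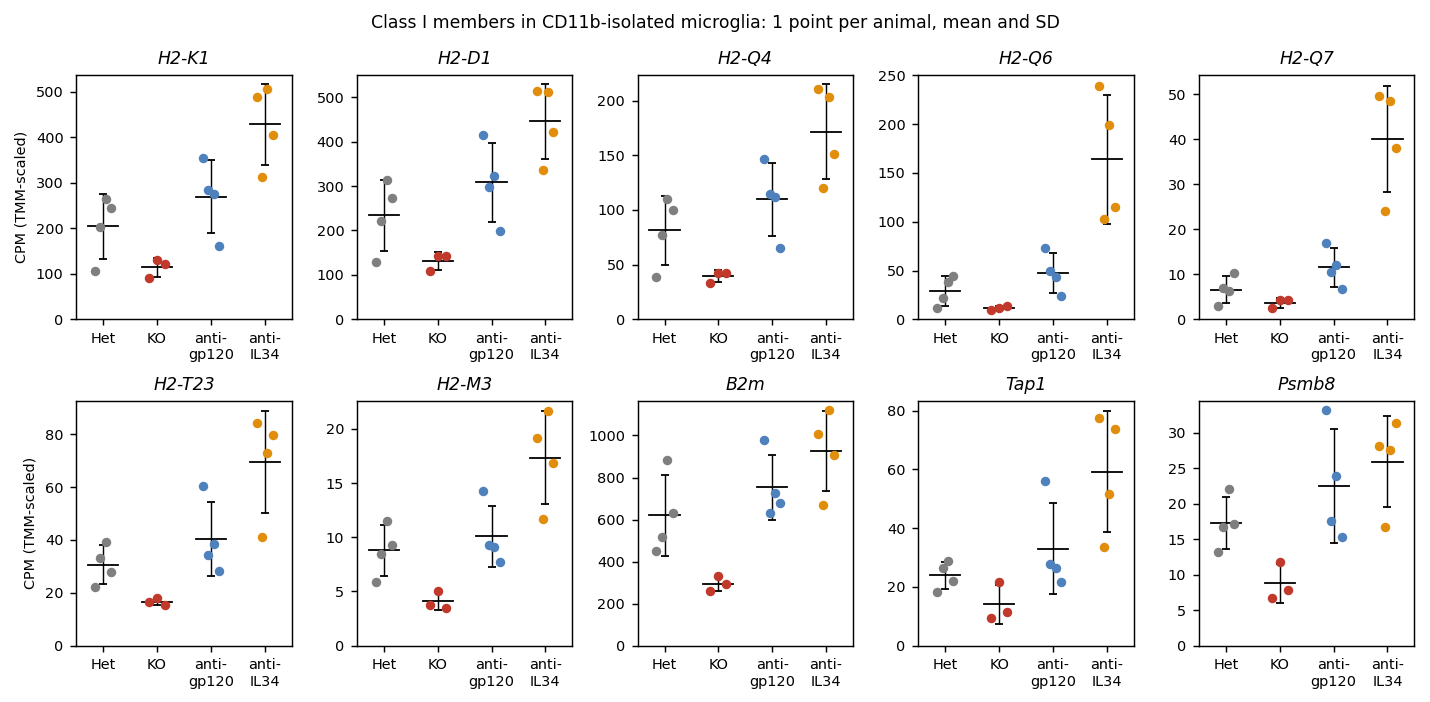
CPM (TMM-scaled, linear axes from 0) of each member in CD11b-isolated microglia, 1 point per animal, with the mean as a line and the SD as a bar, for the Het (n = 4), KO (n = 3), anti-gp120 (n = 4) and anti-IL34 (n = 4) arms. The KO mean is the lowest of the 4 arms in every panel, though KO and Het points overlap for H2-K1, H2-D1, H2-Q4, H2-Q6, H2-Q7 and Tap1. Only for H2-Q6 and H2-Q7 do all anti-IL34 points lie above all anti-gp120 points.

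In isolated microglia 0 of 10 members passed the test in edgeR in either experiment, with fitted values below 0 for all 10 after deletion of Il34 and above 0 for all 10 with the antibody. DESeq2 called 10 members and 3887 of 18185 genes after deletion, and 2 members and 2015 of 17570 genes with the antibody. H2-K1, a classical heavy chain gene, stood at 105, 203, 265 and 244 CPM in Het animals 1, 20, 21 and 23 and at 90.7, 129 and 122 CPM in KO animals 3, 6 and 24. Het animal 1 was below both KO animals 6 and 24, so the arms overlapped. With the control antibody H2-K1 stood at 355, 284, 276 and 161 CPM in animals 1, 7, 8 and 15, and with anti-IL34 at 488, 314, 506 and 405 CPM in animals 2, 10, 11 and 24. Anti-IL34 animal 10 was below control animal 1, and the other 3 were above all controls.

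H2-D1, the other classical chain gene, followed H2-K1 closely. Its Het values were 128, 221, 314 and 274 CPM and its KO values 108, 143 and 142 CPM. It read 414, 297, 323 and 199 CPM with anti-gp120 and 513, 335, 511 and 422 CPM with anti-IL34. The same animals were lowest in each arm as for H2-K1: Het 1, KO 3, anti-gp120 15 and anti-IL34 10.

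H2-Q6 and H2-Q7 encode nonclassical chains of the Qa-2 group. H2-Q6 stood at 73.0, 49.3, 43.8 and 23.9 CPM with anti-gp120 and at 239, 102, 199 and 115 CPM with anti-IL34. H2-Q7 stood at 17.0, 10.4, 12 and 6.67 CPM with anti-gp120 and at 49.6, 24.1, 48.5 and 38.2 CPM with anti-IL34. All 4 anti-IL34 isolates were above all 4 controls for both genes. After deletion H2-Q6 read 11.2, 21.6, 37.8 and 44.7 CPM in the Het and 9.76, 11.2 and 13.5 CPM in the KO isolates, and H2-Q7 read 2.88, 6.96, 6.24 and 10.3 CPM against 2.45, 4.27 and 4.22 CPM. Het animal 1 lay among the KO values for both.

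H2-Q4, H2-T23 and H2-M3 are the remaining nonclassical chain genes. H2-Q4 ran from 38.7 to 110.3 CPM in the Het and 32.9 to 42.8 in the KO isolates, and from 65.7 to 146 with anti-gp120 and 120.2 to 211 with anti-IL34. H2-T23, which encodes Qa-1, a ligand of inhibitory receptors of NK cells, ran from 22.2 to 39.4 CPM in the Het and 15.4 to 17.9 in the KO isolates, and from 28.1 to 60.4 and 41.2 to 84.3 CPM in the antibody arms. H2-M3, which presents formylated peptides, ran from 5.88 to 11.5 CPM in the Het and 3.5 to 5.08 in the KO isolates, and from 7.75 to 14.2 and 11.7 to 21.7 CPM in the antibody arms. H2-T23 and H2-M3 had no overlap between Het and KO, and all 3 genes overlapped between the antibody arms.

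B2m stood at 449, 516, 885 and 631 CPM in the Het and 259.5, 332 and 294 CPM in the KO isolates, without overlap. Its values with anti-gp120 (976, 632, 728 and 678 CPM) and anti-IL34 (1009, 670.4, 1122 and 905 CPM) overlapped. Tap1, 1 subunit of the peptide transporter, ran from 18.3 to 28.9 CPM in the Het and 9.36 to 21.7 in the KO isolates, and from 21.6 to 56.1 and 33.5 to 77.5 CPM in the antibody arms. Psmb8 ran from 13.1 to 22.2 CPM in the Het and 6.67 to 11.8 in the KO isolates, without overlap, and from 15.3 to 33.2 and 16.7 to 31.4 CPM in the antibody arms. The antibody arms of Psmb8 spanned nearly the same range.

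The fitted log2 fold changes for KO against Het in microglia were below 0 for 10 of 10 members, with a median of -0.998 against 0.02 over all 18185 genes tested. They were -0.90 ± 0.30 (SE) for H2-K1, -0.88 ± 0.29 for H2-D1, -1.09 ± 0.33 for H2-Q4, -1.38 ± 0.44 for H2-Q6 and -0.97 ± 0.29 for H2-Q7. H2-T23 (-0.87 ± 0.21), H2-M3 (-1.10 ± 0.26), B2m (-1.06 ± 0.27), Tap1 (-0.85 ± 0.30) and Psmb8 (-1.02 ± 0.25) lay in the same range. With edgeR's quasi-likelihood test and Benjamini-Hochberg adjustment 0 of 10 members passed 0.05 (adjusted p from 0.0616 for H2-T23 to 0.121 for Tap1), while 5.37% of all genes did. At an unadjusted p under 0.05, 10 of 10 members were lower, against 18.2% of all genes, and 4 of 10 had no overlap between arms, against 19.3%.

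The deletion calls in microglia depended on the tool and on which animals were in the fit. DESeq2 called all 10 members lower and 3887 of 18185 genes in either direction. Without Het animal 1 edgeR called 9 members and 5756 of 18294 genes, and without Het animal 21 it called 7 members and 3115 of 18073 genes. Leaving out any of the other 5 animals left 0 calls, over all genes as well as the members. Markers of other cells moved with this comparison: the 6 microglia markers summed to 6965 to 12164 CPM in the Het and 2607 to 2965 in the KO isolates, and the 5 astrocyte markers to 1109 to 3246 and 3895 to 4213 CPM. The 5 oligodendrocyte markers summed to 2895 to 9608 and 7297 to 17292 CPM, and the 6 neuron markers to 108 to 403 and 364 to 603 CPM. The 5 dendritic cell markers, Siglech among them, summed to 436 to 772 and 172 to 179 CPM. The 4 B cell markers summed to 6.86 to 9.64 and 3.49 to 6.02 CPM. Their part in the lower class I values was not tested.

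Set against the microglia markers of the same library, the members were not lower in the KO isolates. This ratio was chosen after the values were seen. The 10 members summed to 795 to 1720 CPM in the Het and 540 to 719 CPM in the KO isolates. Per 100 CPM of microglia markers that came to 11.4 to 16.2 CPM in the Het and 20.7 to 24.2 CPM in the KO isolates, higher in all 3 KO libraries. For B2m alone it came to 6.44 to 7.42 and 9.95 to 11.2 CPM. The 6 markers each passed the threshold as lower in the KO isolates, so the ratio moves with them as well as with the members.

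**Figure D2:**
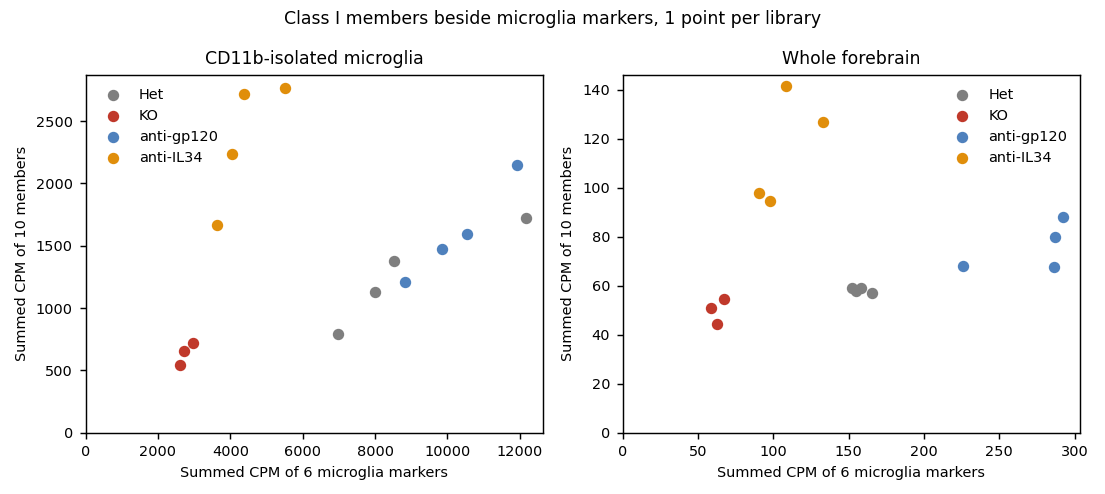
Summed CPM of the 10 members (vertical) against summed CPM of the 6 microglia markers (horizontal) in each library, linear axes from 0, colours giving the arm. In the isolates the KO points lie at 2607 to 2965 marker CPM and 540 to 719 member CPM, while the anti-IL34 points combine 3624 to 5509 marker CPM with 1669 to 2764 member CPM.

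For anti-IL34 against anti-gp120 in microglia, the fitted log2 fold changes were above 0 for 10 of 10 members, with a median of 0.73 against 0.06 over all 17570 genes. H2-Q6 (1.80 ± 0.39, SE) and H2-Q7 (1.81 ± 0.33) stood highest. H2-K1 (0.68 ± 0.26), H2-D1 (0.54 ± 0.24), H2-Q4 (0.66 ± 0.27), H2-T23 (0.78 ± 0.29), H2-M3 (0.80 ± 0.26) and Tap1 (0.78 ± 0.32) formed a middle range, with B2m (0.34 ± 0.22) and Psmb8 (0.21 ± 0.29) lowest. By edgeR with Benjamini-Hochberg adjustment 0 of 10 members passed 0.05, the smallest adjusted p being 0.0563 for H2-Q7 and 0.0686 for H2-Q6, while 0.626% of all genes passed. At an unadjusted p under 0.05, 7 of 10 members were higher, against 10.6% of all genes, and 2 of 10 had no overlap between arms, against 3.83%.

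DESeq2 called 2 of the 10 members and 2015 of 17570 genes. Without anti-gp120 animal 15, the lowest control for every member but B2m, edgeR called 2 members and 6905 of 17071 genes, a larger share of all genes than of the members. In the same isolates the microglia markers summed to 8829 to 11932 CPM with anti-gp120 and 3624 to 5509 with anti-IL34, the opposite direction to the members. The 10 members together read 1208 to 2146 and 1669 to 2764 CPM, which is 13.7 to 18 and 46.1 to 62.0 CPM per 100 CPM of microglia markers. Because those markers were lower with anti-IL34, this ratio rises for any gene that fell less than they did. The 6 markers of neutrophils and monocytes, which also carry CD11b, summed to 35.2 to 254 CPM and 128 to 339 CPM, and the astrocyte markers to 1572 to 5041 and 3003 to 5368 CPM. The 8 markers of T and NK cells lay between 4.07 and 7.69 CPM in both arms, with Cd8a at 0 in the anti-gp120 isolates. The 4 choroid plexus and ependyma markers summed to 7.77 to 17.3 and 8.22 to 2056 CPM, and the 6 border macrophage markers to 424 to 746 and 292 to 398 CPM. The oligodendrocyte markers summed to 3781 to 9388 and 5700 to 12279 CPM, and the neuron markers to 191 to 580.2 and 420 to 728 CPM. The 5 dendritic cell markers, Siglech among them, summed to 579 to 818 and 248 to 408 CPM. The part of other cells in the higher class I values was not tested.

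**Figure D3:**
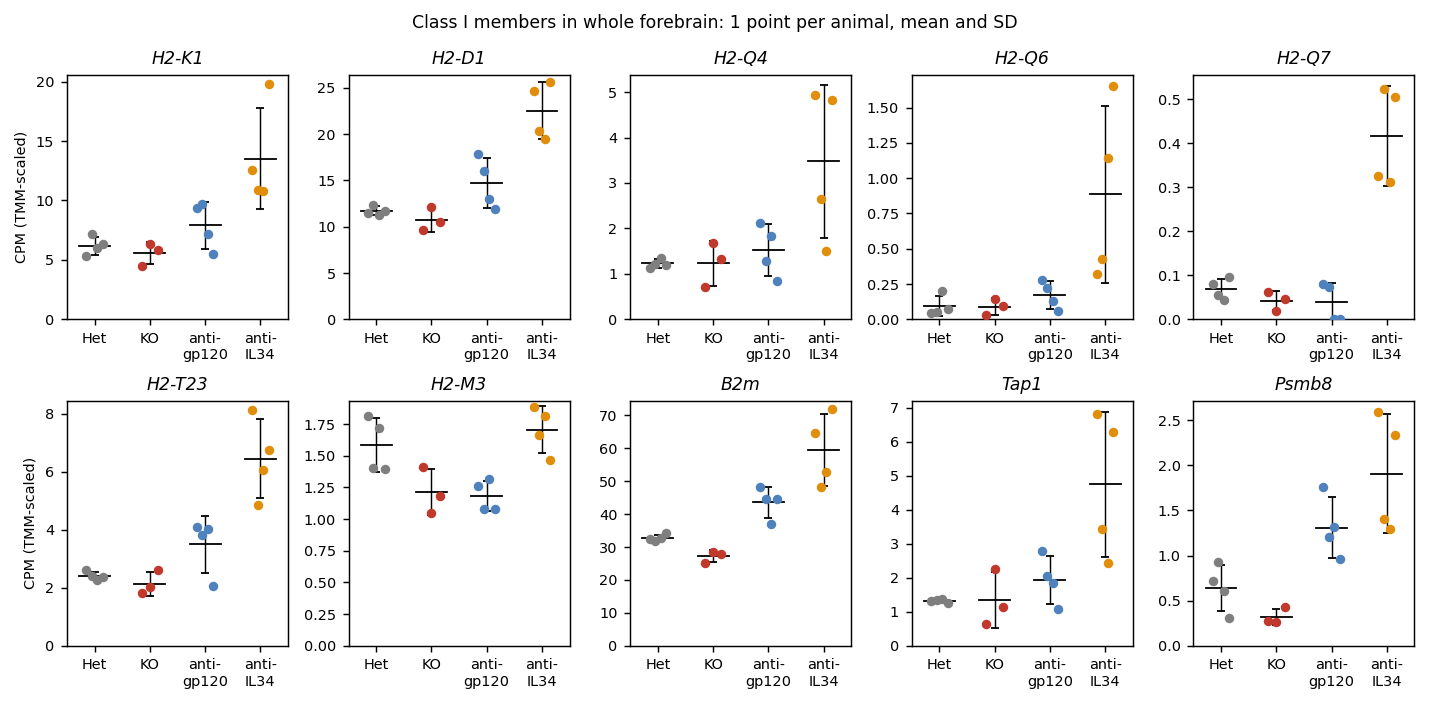
CPM (TMM-scaled, linear axes from 0) of each member in whole forebrain, drawn as for microglia with 1 point per animal, the mean and the SD, for the 4 arms. The anti-IL34 points lie above all anti-gp120 points for H2-K1, H2-D1, H2-Q6, H2-Q7, H2-T23 and H2-M3, and the KO points below all Het points for B2m.

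In whole forebrain H2-D1 was the only member called with the antibody and B2m the only one called after deletion. H2-D1 stood at 17.8, 16.0, 13.0 and 12 CPM in anti-gp120 animals 1, 7, 8 and 15 and at 24.6, 20.4, 19.4 and 25.6 CPM in anti-IL34 animals 2, 10, 11 and 24, without overlap. H2-K1 stood at 9.34, 9.71, 7.16 and 5.47 CPM against 12.5, 10.9, 10.8 and 19.8 CPM, also without overlap. Anti-IL34 animal 24 was highest for both. In the genotype experiment H2-D1 ran from 11.3 to 12.4 CPM in the Het and 9.62 to 12.1 in the KO forebrains, and H2-K1 from 5.36 to 7.14 and 4.51 to 6.33 CPM, both overlapping.

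B2m stood at 32.4, 32.0, 32.8 and 34.1 CPM in the Het and 25.2, 28.5 and 27.9 CPM in the KO forebrains, so that every KO value was below every Het value. In the antibody arms it stood at 48.3, 44.5, 37.0 and 44.7 CPM against 64.6, 48.3, 52.9 and 72.1 CPM, with anti-IL34 animal 10 close to control animal 1. H2-T23 ran from 2.04 to 4.09 and 4.84 to 8.12 CPM in the antibody arms, and H2-M3 from 1.08 to 1.31 and 1.47 to 1.88 CPM, both without overlap. In the genotype arms H2-T23 ran from 2.28 to 2.60 and 1.81 to 2.60 CPM, and H2-M3 from 1.40 to 1.82 and 1.05 to 1.41 CPM.

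The low members in forebrain were carried by few counts. H2-Q7 had 6, 4, 0 and 0 counts in the 4 anti-gp120 forebrains and 5, 22, 6 and 11 in the 4 anti-IL34 forebrains, which is at most 0.0795 CPM against 0.311 to 0.522 CPM. H2-Q6 had 1 to 21 counts (0.0601 to 0.278 CPM) and 5 to 36 counts (0.325 to 1.65 CPM). The arms did not overlap for either, but both genes fell below the filter on low counts and were not tested within an experiment in forebrain. H2-Q4 (0.841 to 2.12 and 1.5 to 4.94 CPM), Tap1 (1.08 to 2.79 and 2.44 to 6.82 CPM) and Psmb8 (0.962 to 1.76 and 1.30 to 2.60 CPM) overlapped between the antibody arms. In the genotype forebrains they ran from 1.13 to 1.36 and 0.705 to 1.68 CPM for H2-Q4, from 1.24 to 1.36 and 0.644 to 2.25 CPM for Tap1, and from 0.306 to 0.923 and 0.258 to 0.426 CPM for Psmb8.

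The fitted log2 fold changes with the antibody in forebrain were above 0 for 8 of the 8 members tested, with a median of 0.59 against 0.00 over 17143 genes. H2-D1 rose by 0.52 ± 0.10 (SE; edgeR adjusted p 0.0408, Benjamini-Hochberg) and was the only member called, while 0.717% of all genes were called. Tap1 had the largest value, 1.04 ± 0.26, followed by H2-Q4 at 0.97 ± 0.33, H2-T23 at 0.79 ± 0.21, H2-K1 at 0.65 ± 0.18 and H2-M3 at 0.52 ± 0.19. B2m (0.39 ± 0.12) and Psmb8 (0.38 ± 0.26) were again the smallest. At an unadjusted p under 0.05, 7 of 8 were higher, against 1.43% of all genes, and 4 of 8 had no overlap between arms, against 1.2%.

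The call of H2-D1 held without anti-IL34 animal 10 (adjusted p 0.0127) and was lost when any of the other 7 animals was left out (adjusted p 0.0627 to 0.434), with log2 fold changes of 0.47 to 0.59. It was also lost with no sex term (0.0862) and with the counts of H2-K1 and H2-D1 summed (log2 fold change 0.57, adjusted p 0.0527), all in edgeR. DESeq2 called 4 members and 198 of 17143 genes. Microglia markers summed to 226 to 292 CPM in the anti-gp120 and 90.7 to 133 CPM in the anti-IL34 forebrains, opposite to the members. The members summed to 67.6 to 87.9 and 94.5 to 141 CPM. That is 23.6 to 30.2 and 95.3 to 131 CPM per 100 CPM of those markers, a ratio that moves with the markers as well. The 6 endothelial markers summed to 238 to 269 and 225 to 296 CPM, and the astrocyte markers to 1529 to 1855 and 1558 to 1619 CPM. Lower without overlap were the 5 dendritic cell markers, Siglech among them (51.8 to 60.1 and 35.1 to 42.4 CPM), and the 6 border macrophage markers (14.0 to 21.1 and 6.50 to 13.3 CPM).

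For KO against Het in forebrain the median over the 8 members tested was -0.21, against 0.00 over 19343 genes. B2m fell by 0.28 on the log2 scale (SE 0.05; edgeR adjusted p 0.0343, Benjamini-Hochberg) and was the only member called, while 0.62% of all genes were called. Psmb8 had the lowest value, -1.07 ± 0.42, at an adjusted p of 0.585 in edgeR and with fewer than 1 CPM in all 7 libraries. The other members lay between -0.34 ± 0.17 (H2-M3) and -0.00 ± 0.31 (Tap1), with H2-T23 at -0.22 ± 0.16, H2-K1 at -0.20 ± 0.10, H2-D1 at -0.14 ± 0.08 and H2-Q4 at -0.04 ± 0.25. At an unadjusted p under 0.05, 2 of 8 were lower, against 5.01% of all genes, and 1 of 8 had no overlap, against 5.24%. The signs of Tap1 and H2-Q4 turned under other settings.

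The call of B2m held without Het animal 20 (adjusted p 0.0270) and was lost when any of the other 6 animals was left out (adjusted p 0.0867 to 0.496), with log2 fold changes of -0.32 to -0.23. It was also lost with no sex term (edgeR adjusted p 0.0751) and with all 15 forebrains in 1 fit. DESeq2 called it, at an adjusted p of 0.00909. Microglia markers summed to 152 to 166 CPM in the Het and 58.6 to 67.2 CPM in the KO forebrains. The members per 100 CPM of those markers came to 34.4 to 38.6 and 71.0 to 87.1 CPM, a ratio that moves with the markers as well. Oligodendrocyte markers were lower too, with 4 of 5 called by edgeR and sums of 5003 to 5966 and 4068 to 4363 CPM, without overlap. Their part in the lower B2m was not tested.

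**Figure D4:**
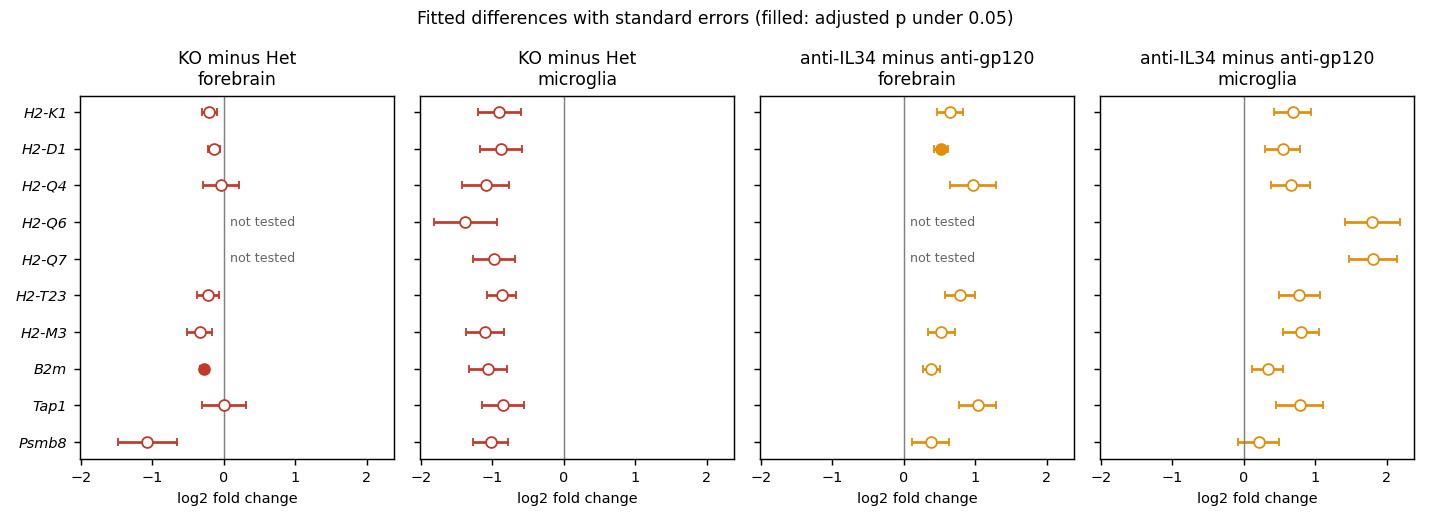
Fitted log2 fold change (points) and standard error (bars) of each member in the 4 comparisons, with 0 as a grey line and filled points for an adjusted p under 0.05. B2m in KO forebrain (-0.28) and H2-D1 in anti-IL34 forebrain (0.52) are the only filled points, and H2-Q6 (1.80) and H2-Q7 (1.81) stand highest in anti-IL34 microglia.

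The difference between the effect of deletion and the effect of the antibody was tested across the 15 libraries of each tissue. In microglia the deletion effect was lower for 10 of 10 members, with a median difference of -1.58 on the log2 scale against -0.01 over 18732 genes. The difference was -3.13 ± 0.65 for H2-Q6, -2.74 ± 0.54 for H2-Q7, -1.54 ± 0.43 for H2-K1, -1.39 ± 0.41 for H2-D1 and -1.38 ± 0.35 for B2m. It was -1.87 ± 0.38 for H2-M3, -1.71 ± 0.47 for H2-Q4, -1.62 ± 0.39 for H2-T23, -1.53 ± 0.53 for Tap1 and -1.18 ± 0.42 for Psmb8. By edgeR with Benjamini-Hochberg adjustment 0 members passed 0.05, as did 0% of all genes, and 10 of 10 had an unadjusted p under 0.05 with a lower value, against 3.3% of all genes. DESeq2 called 5 of the members and 35 of 18732 genes.

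In forebrain the same difference was -0.68 ± 0.15 for B2m, -0.66 ± 0.17 for H2-D1, -0.84 ± 0.29 for H2-K1 and -0.87 ± 0.25 for H2-M3. It was -0.98 ± 0.50 for H2-Q4, -0.997 ± 0.29 for H2-T23, -0.94 ± 0.52 for Tap1 and -1.43 ± 0.50 for Psmb8. H2-Q7 (-3.55 ± 0.85) and H2-Q6 (-1.90, SE 1.001) passed the filter on low counts in this fit but not within either experiment, so their values rest on the few counts given above. Both were highest in the anti-IL34 forebrains and passed through that arm, so their values describe genes that had to differ. By edgeR 0 of 10 members passed 0.05 after Benjamini-Hochberg adjustment, while 0.0101% of all genes did, and 7 of 10, H2-Q7 among them, were lower at an unadjusted p under 0.05, against 2.02%. H2-Q7 adds nothing to that count, since the filter fixed its direction. DESeq2 called 1 member and 28 of 19724 genes. The 2 experiments also differed in their controls: H2-D1 stood at 12 to 17.8 CPM in anti-gp120 and 11.3 to 12.4 in Het forebrain, and experiment and control type cannot be told apart.

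Whether an effect differed between microglia and forebrain was tested as an interaction. For deletion, B2m differed by -0.74 ± 0.28, H2-D1 by -0.71 ± 0.33 and H2-K1 by -0.66 ± 0.34 on the log2 scale. H2-Q4 (-1.03 ± 0.49), H2-T23 (-0.62 ± 0.27), H2-M3 (-0.73 ± 0.32) and Tap1 (-0.78 ± 0.52) were also below 0, and Psmb8 stood at 0.08 ± 0.49. H2-Q6 (-1.53 ± 1.21) and H2-Q7 (-0.13 ± 1.52) had wide errors on their few forebrain counts, and the signs of H2-Q7 and Psmb8 turned without single animals. By edgeR with Benjamini-Hochberg adjustment 0 of 10 members passed, while 2.98% of all genes did, and 3 members (H2-T23, H2-M3 and B2m) had an unadjusted p under 0.05, as did 6242 of 20107 genes, a share near that of the members. DESeq2 called 1 member and 3635 of 20107 genes. Without Het animal 1 edgeR called 6 members and 5688 of 19970 genes, and without Het animal 21 it called 1 member and 3243 of 19924 genes. With the animal as a block, since both libraries of an animal are paired, the 599 genes called became 0, and 0 members were called. For the antibody, H2-K1 differed by 0.02 ± 0.36, H2-D1 by 0.00 ± 0.31 and B2m by -0.06 ± 0.27. The signs of H2-K1 and H2-D1 turned under RLE scaling, and that of B2m when anti-gp120 animal 1 or anti-IL34 animal 24 was left out. The others ran from -0.98 ± 0.75 for H2-Q7 to 0.26 ± 0.34 for H2-M3, with H2-Q4 at -0.33 ± 0.47, Tap1 at -0.27 ± 0.46, Psmb8 at -0.18 ± 0.43, H2-Q6 at -0.18 ± 0.76 and H2-T23 at -0.03 ± 0.39, and the signs of H2-M3, H2-Q6 and H2-T23 turned without single animals. Of the 10 members 0 passed in edgeR or in DESeq2, 0 had an unadjusted p under 0.05, against 3890 of 18399 genes, and 0.0924% of all genes passed in edgeR, or 17 genes, which became 0 with the animal as a block.

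The larger antibody values of H2-Q6 and H2-Q7 can also be given as shares, which restate those values and are no further evidence. Of the counts of the 7 heavy chain members in microglia, H2-Q6 and H2-Q7 together took 8.33%, 7.47%, 6.87% and 6.21% in anti-gp120 animals 1, 7, 8 and 15. They took 18%, 13.3%, 15.9% and 12.5% in anti-IL34 animals 2, 10, 11 and 24. The arms did not overlap, and the highest control was below the lowest anti-IL34 isolate. The share of H2-K1 and H2-D1 together was 71.2% to 73.5% and 62.4% to 68.4%, which follows from the larger Q share and not from lower CPM of these genes, and that of H2-Q4 13.3% to 14.4% and 12.3% to 13.1%. In the genotype experiment the share of H2-Q6 and H2-Q7 was 4.47% to 7.75% in Het and 4.39% to 5.17% in KO isolates, which overlap. In forebrain it was 0.280% to 1.02% with anti-gp120 and 1.23% to 3.56% with anti-IL34. Each share is of 5455 to 78220 heavy chain counts in microglia and 357 to 2641 in forebrain.

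**Figure D5:**
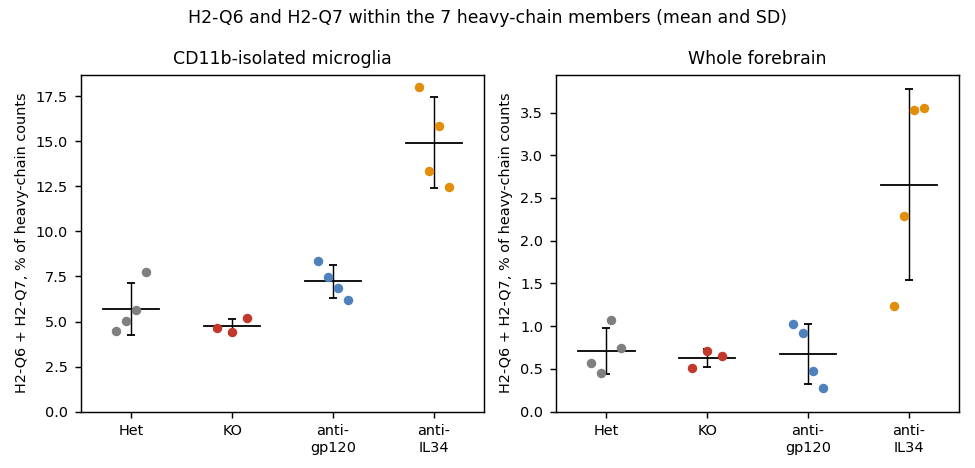
Share of the counts of the 7 heavy chain members that fell on H2-Q6 and H2-Q7, in percent from 0, 1 point per library with the mean and SD, for the 4 arms in each tissue. In microglia the anti-IL34 libraries sit between 12.5% and 18%, above the 6.21% to 8.33% of the anti-gp120 libraries, and the Het and KO libraries overlap.

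The Q genes share sequence with other genes, which bears on such shares. Of the 75-base stretches in the transcripts of H2-Q6, 21.1% also occur in another gene, and 9.80% occur in H2-Q7. The figure was 17.0% for H2-Q7, 20.7% for H2-Q4, 5.91% for H2-T23, 5.56% for H2-D1, 3.10% for H2-K1 and 0% for H2-M3 and B2m. It was 9.97% for Psmb8 and 2.40% for Tap1. How reads matching several genes were treated is not given in the sources used here, so the split between H2-Q6, H2-Q7 and other Q genes is uncertain. With the counts of H2-Q4, H2-Q6 and H2-Q7 summed, the log2 fold change in microglia was 1.17 with the antibody and -1.15 with the deletion. H2-T23 lies wholly within the antisense gene A930015D03Rik, which had up to 5905 counts in forebrain and 1954 in microglia, and use of strand is not stated, so its values are uncertain too, as are those of H2-Q4 and Psmb8, which overlap the antisense genes Gm11131 and Gm20496. The span of B2m lies within Patl2, which had at most 18 counts in forebrain and 49 in microglia.

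Among the other class I heavy chain genes, 16 of 20 listed symbols were in the table. Hfe, which encodes a class I-like protein of iron balance, was the only one that edgeR called in the deletion and antibody comparisons. It fell by 0.78 (SE 0.14; adjusted p 0.0241) in KO forebrain and by 1.04 (SE 0.17; adjusted p 0.0221) in KO microglia on the log2 scale (edgeR, Benjamini-Hochberg), out of 10 and 11 such genes tested. An unadjusted p under 0.05 was reached by 2 and 6 of them, and DESeq2 called 1 and 4. Over all genes edgeR called 0.62% in KO forebrain and 5.37% in KO microglia. In KO microglia 5932 of 18185 genes had an unadjusted p under 0.05 and DESeq2 called 3887, and in anti-IL34 microglia these were 4559 and 2015 of 17570. In KO forebrain they were 1441 and 178 of 19343, and in anti-IL34 forebrain 833 and 198 of 17143. With the antibody 0 of 8 passed in forebrain and 0 of 11 in microglia in edgeR, with 2 and 8 at an unadjusted p under 0.05, while DESeq2 called 1 and 5. H2-T22 stood at 0.53 ± 0.11 (adjusted p 0.0821) in forebrain and 1.00 ± 0.19 (0.0565) in microglia, and Hfe at -0.49 ± 0.22 and -1.01 ± 0.19, the opposite direction, in edgeR.

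The 7 genes of peptide transport and loading listed beside Tap1 had 0 edgeR calls in each of the 4 comparisons. After deletion 3 in forebrain and 3 in microglia had an unadjusted p under 0.05, and with the antibody 1 and 3, while DESeq2 called 0 and 2, and 0 and 2. Over all genes in microglia, 5932 of 18185 and 4559 of 17570 had an unadjusted p under 0.05, and DESeq2 called 3887 and 2015. In forebrain 1441 of 19343 and 833 of 17143 genes had an unadjusted p under 0.05, and DESeq2 called 178 and 198. In microglia Tap2, the partner of Tap1, stood at -0.82 ± 0.19 (edgeR adjusted p 0.0595, Benjamini-Hochberg) after deletion, and Tapbp, which encodes tapasin, at -0.67 ± 0.18 (0.0845). With the antibody in forebrain Tapbp stood at 0.35 ± 0.09 (0.236), and in microglia the chaperone genes Calr (-0.39 ± 0.14) and Pdia3 (-0.40 ± 0.15) stood below 0. In the same 4 comparisons the immunoproteasome genes listed beside Psmb8 had 0 of 3 calls in antibody forebrain and 0 of 4 in each of the others. Psmb9 stood at -0.98 ± 0.26 in KO microglia and 0.53 ± 0.35 in anti-IL34 microglia. An unadjusted p under 0.05 was reached by 2 of them in KO microglia and 0 in the other 3 of these comparisons, and DESeq2 called 1, in KO microglia, where 5932 and 3887 of 18185 genes did so. In these 4 comparisons the 7 constitutive counterparts had 0 calls in edgeR and in DESeq2 and 0 at an unadjusted p under 0.05. Their medians were 0.04 and 0.08 in microglia after deletion and antibody.

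Of 14 transcription regulators of class I genes tested, Irf9 was the only one that edgeR called with the antibody in forebrain, where it rose by 0.86 ± 0.16 (edgeR adjusted p 0.0403, Benjamini-Hochberg), while 3 had an unadjusted p under 0.05 and DESeq2 called 2. Over all 17143 genes these counts were 123, 833 and 198. Irf9 encodes part of a complex that interferons activate. In anti-IL34 microglia 0 of 14 passed in edgeR, 5 had an unadjusted p under 0.05 and DESeq2 called 3, with Nfya at -0.65 ± 0.18 and Stat2 at 1.19 ± 0.34. Over all 17570 genes there, 4559 had an unadjusted p under 0.05 and DESeq2 called 2015. In KO microglia Irf2 fell by 0.72 (SE 0.16; edgeR adjusted p 0.04997, Benjamini-Hochberg), the only edgeR call there, or 1 of 14 against 5.37% of all genes. In the same comparison 8 of 14 had an unadjusted p under 0.05, against 5932 of 18185 genes, and DESeq2 called 5 of 14, against 3887 genes. In KO forebrain 0 of 14 passed in either tool, and 2 had an unadjusted p under 0.05, against 1441 of 19343 genes. Irf8, known to be expressed by microglia, was listed at 0 in all 30 libraries, so a 0 in this table can be a gap in the counting.

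Interferon-response genes, a list known from earlier results to be higher with the antibody, had 12 of 15 edgeR calls in anti-IL34 forebrain and 0 of 15 in microglia, with medians of 2.17 and 2.21. Over all genes edgeR called 0.717% and 0.626%. All 15 interferon-response genes were above 0 in both tissues, had an unadjusted p under 0.05 and were called by DESeq2. Over all genes, 833 of 17143 in forebrain and 4559 of 17570 in microglia had an unadjusted p under 0.05, and DESeq2 called 198 and 2015. The 15 genes summed to 45.6 to 66.6 and 109 to 284 CPM in the antibody forebrains, and to 154 to 507 and 535 to 1585 CPM in the isolates. After deletion 0 of 14 in forebrain and 0 of 15 in microglia passed in edgeR, with 2 and 4 at an unadjusted p under 0.05, 0 and 2 calls by DESeq2, and medians of -0.19 and -0.59. Over all genes, 1441 of 19343 and 5932 of 18185 had an unadjusted p under 0.05 after deletion, and DESeq2 called 178 and 3887. Of 8 class II presentation genes, 3 were called in KO microglia, where 5.37% of all genes were: H2-Oa (-1.77 ± 0.30), H2-DMa (-0.95 ± 0.16) and H2-DMb1 (-0.94 ± 0.20) fell at edgeR adjusted p of 0.0252, 0.0260 and 0.0472 (Benjamini-Hochberg). With the antibody in microglia 0 of 8 passed in edgeR, 3 had an unadjusted p under 0.05 and DESeq2 called 2. Over all 17570 genes the last 2 of these counts were 4559 and 2015. In that comparison H2-Oa stood at -1.05 ± 0.19 and H2-DMa at -0.81 ± 0.18.

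The genes outside the members and the class I lists whose log2 CPM was most like that of a member over the 15 libraries of a tissue are given as a description, since the libraries share arms, animals' depth and cell makeup. In forebrain H2-D1 was closest to Lgals3bp (Pearson r 0.981), Ifitm3 (0.976), Ifi27 (0.976), Rnf213 (0.975) and Irf7 (0.965). For H2-K1 they were Trim25 (0.942), Iigp1c (0.939), Ddx60 (0.930), Lgals3bp (0.928) and Rnf213 (0.927), and for B2m Slfn8 (0.974), Trim30d (0.971), Lgals9 (0.956), C4b (0.955) and Ifit1 (0.950). In microglia H2-K1 was closest to Cd22 (0.957), Gvin-ps7 (0.957), Sh2d6 (0.956), Itgax (0.948) and Trim25 (0.945). H2-D1 was closest to Gvin-ps7 (0.972), Sh2d6 (0.967), Cd22 (0.959), Trim25 (0.957) and Ly6e (0.956), and B2m to Epsti1 (0.965), Ly6e (0.959), Treml2 (0.958), Gm5831 (0.952) and Tor1aip1 (0.952). Among the members, H2-K1 and H2-D1 had r of 0.996 in microglia and 0.962 in forebrain, while H2-M3 had r of 0.959 with H2-K1 in microglia and 0.271 in forebrain.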

How the data were processed

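Whole forebrain and CD11b-isolated cells were measured in 15 mice. The authors deposited unnormalised read counts per gene, whole numbers with totals that differ between libraries, per the file headers and values. STAR 2.7.5c, featureCounts 1.6.3, R 4.4.0 and GRCm38 are named in the submitters' processing notes, without their settings. The deposited count table also gives a Length per gene, equal to the gene span for 51183 of 51498 identifiers matched to GENCODE M21, and exon lengths from that annotation were used for levels per kilobase. The table holds 6 count columns of no labelled sample, which were not used, and a deposited TPM table was not used because 7 of the 10 members have no row there.

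Counts were scaled with TMM, filtered with filterByExpr by group and fitted with edgeR 4.0.16 (quasi-likelihood F test, sex as a covariate, Benjamini-Hochberg adjustment over all genes tested, threshold 0.05), in R 4.3.3 with limma 3.58.1. DESeq2 1.42.0 (Wald test), RLE scaling, no filter, no sex terms, all 15 libraries of a tissue in 1 fit, summed copies, each animal left out and the animal as a block were alternatives. The fit was tested on simulated data. Each animal's 2 libraries deviated together from their arm means (median r 0.162, from 0.0642 to 0.308, above 0.1 in 12 of 15 animals), and the pairing comes from the labels. The median for other animals of the arm was -0.0569, but deviations within an arm sum to 0, so that value is no separate evidence. P-values of comparisons within a tissue measure the spread between animals. The main fits across tissues had no animal term, so their p-values and errors treat an animal's 2 libraries as independent.

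All 10 members are named in every comparison; of other pathway lists, at most 4 genes past the threshold by smallest p, or 2 where none passed. The 5 genes most like H2-K1, H2-D1 and B2m, outside the members and class I lists, were ranked by Pearson r of log2 CPM with 0.5 added, over 15 libraries. The members and lists were chosen with earlier results of these data known. Promoter sequences are RefSeq's, and 75-base stretches were compared among GENCODE M21 transcripts. The ratio of members to microglia markers and the motif AANNGAAA were chosen after the values were seen. Of the lists, 1 microglia marker and 1 regulator are not reported here and entered no sum or count.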

Additional observations from a re-analysis of the deposited data

Results flagged for a closer look

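H2-T23 in forebrain of anti-gp120 animal 15, at 2.04 CPM, was far from the other 3 control animals, which stood at 4.09, 3.82 and 4.01 CPM. It was the only such sample among 60 groups of a member, arm and tissue, of which chance flags about 1 in 20.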

How the results depend on the processing

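All 10 members were called higher in control microglia than in forebrain under every setting, the replicate block by animal included (10 members, 16529 genes), and without any 1 animal (10 to 10 members, 16202 to 17112 genes, against 16663).

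Called members (with all genes called in parentheses) were as follows in edgeR. After deletion in forebrain the 1 member (120) became 0 (122) with no sex term and 0 (87) with 15 libraries in 1 fit, stayed 1 with no filter on low counts (381) and DESeq2 (178), and was 0 to 1 (55 to 117) without 1 animal. After deletion in microglia 0 (976) became 6 (1993) with no filter, 10 (3887) with DESeq2, 4 (2189) with no sex term, 2 (2734) with 15 libraries and 0 to 9 (0 to 5756) without 1 animal. With the antibody in forebrain 1 (123) became 8 (349) with no filter, 4 (198) with DESeq2, 0 (126) with no sex term, 3 (204) with 15 libraries and 0 to 3 (25 to 126) without 1 animal. With the antibody in microglia 0 (110) became 2 (819), 2 (2015), 2 (983) and 2 (988) in the same order of settings, and 0 to 2 (0 to 6905) without 1 animal.

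For the deletion effect between tissues 0 (599) became 0 (1569) with no filter, 1 (3635) with DESeq2, 0 (2400) with no sex term and 0 to 6 (0 to 5688) without 1 animal. With the replicate block, which uses the pairing of both libraries of an animal, 0 members and 0 genes were called for the deletion effect and 0 members and 0 genes for the antibody effect. For the antibody effect 0 members stayed 0, while 17 genes became 48 with RLE scaling, 1352 with no filter, 1092 with DESeq2, 222 with no sex term and 0 to 5565 without 1 animal. For deletion against antibody in forebrain 0 (2) became 4 (114) with no filter, 1 (28) with DESeq2, 0 (4) with no sex term and 0 to 1 (2 to 33) without 1 animal, and in microglia 0 (0) became 0 (1), 5 (35), 0 (0) and 0 to 0 (0 to 5).

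Signs turned for small values. After deletion in forebrain Tap1 read 0.000703 with RLE scaling, 0.118 with no sex term, 0.185 with 15 libraries and -0.62 to 0.48 without 1 animal, and H2-Q4 0.0462, 0.0975 and -0.33 to 0.34 under the last 3. The antibody effect between tissues read -0.0409, -0.0149, -0.0445 and -0.0589 for H2-K1 and -0.0548, -0.0313, -0.0561 and -0.0552 for H2-D1 with RLE scaling, no filter, DESeq2 and no sex term. Without 1 animal it ran from -0.23 to 0.23 for H2-K1, -0.19 to 0.16 for H2-D1, -0.27 to 0.16 for B2m, -0.057 to 0.48 for H2-M3, -0.61 to 0.53 for H2-Q6 and -0.17 to 0.23 for H2-T23. The deletion effect between tissues ran from -0.65 to 0.34 for H2-Q7 and -0.47 to 0.37 for Psmb8. The causes were not tested. In forebrain H2-Q6 and H2-Q7 are limited by their low counts, and the arms by 3 or 4 animals each.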
